A study of Homo sapiens with 12 samples.

Results

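The genes described here encode U1 and U2 small nuclear RNAs (snRNAs), and the question was where in them the EGFR chimera of B2B1 cells was called in chromatin, with and without activation of the receptor pair. The 7 genes are RNU1-1, RNU1-2, RNU1-3, RNU1-4, RNU1-27P, RNU1-28P and RNU2-2P, out of 62700 genes on the assembled chromosomes in GENCODE 44 (GRCh38). They were chosen by the presence of summits in these same lists, so that presence and the ranks are given as a description. Every summit inside a member's limits extended by 500 bp on each side was taken, which gave 16 of 2186 summits. All 7 genes carry the annotation type snRNA, although the symbols of RNU1-27P, RNU1-28P and RNU2-2P end in the P used for pseudogenes.

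B2B1 is 1 clone of MCF10A-5E, an established human breast epithelial cell line. The clone carries NGFR-EGFR-FRB, a chimera of human intracellular EGFR with a GluGlu tag, and NGFR-Erbb2-FKBP, a chimera of rat intracellular Erbb2 with an HA tag, and both were delivered by retroviral transduction and are present in every group. AP21967 (AP) joins the FRB and FKBP domains and so pairs the chimeras. Cells in overlay culture received 0.5 µM AP (plus AP) or 0.1% ethanol (minus AP) for 24 h and were harvested on day 7, and chromatin was immunoprecipitated through the GluGlu tag in 2 replicates of each condition. The lists held 739 and 56 summits for minus AP replicates 1 and 2, and 1094 and 297 summits for plus AP replicates 1 and 2. The libraries of input chromatin and of naive IgG are not analysed here, and the level of summits at these genes in a control immunoprecipitate cannot be given, and the number of reads behind each list is unknown.

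U1 snRNA pairs with the 5′ splice site of a pre-mRNA, and U2 snRNA pairs with the branch point, so that both define the intron that the spliceosome removes. Both are short, very abundant, not polyadenylated and made by RNA polymerase II from promoters with a proximal sequence element, which the SNAPc complex binds, and the Integrator complex cuts the nascent transcript near a 3′ box just past the gene. They are made from several identical or near-identical copies in the human genome. A summit at such a gene is a position in chromatin DNA and says nothing of how much RNA the gene makes.

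The U1 sequence is shown because all 6 U1 members shared it without a single difference over 164 bp. It is given from RNU1-1 at chr1:16514122-16514285 on the minus strand (GRCh38), with the bases that pair with the 5′ splice site in capitals.

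RNU1-1 gene: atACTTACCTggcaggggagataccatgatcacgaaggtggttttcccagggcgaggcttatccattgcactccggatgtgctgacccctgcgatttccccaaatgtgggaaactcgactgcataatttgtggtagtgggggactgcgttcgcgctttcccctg

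The annotation held 8 genes with the same 164 bp: the 6 members, RNVU1-29 and RNVU1-18. All but RNVU1-18 had a summit in at least 1 list. The members lie in 2 groups, RNU1-1 at chr1:16514122-16514285 (minus strand), RNU1-3 at chr1:16666785-16666948 (minus strand), RNU1-4 at chr1:16740516-16740679 (plus strand) and RNU1-2 at chr1:16895980-16896143 (plus strand) on chromosome 1, and RNU1-27P at chr14:34546714-34546877 (plus strand) and RNU1-28P at chr14:34556226-34556389 (minus strand) on chromosome 14.

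The flanks separated the U1 copies where the gene itself could not. RNU1-3 and RNU1-4 were identical over 500 bp on both sides, and so were RNU1-27P and RNU1-28P. RNU1-1 and RNU1-2 matched at 96.6% of bases upstream and 94.7% past the end, whereas RNU1-1 and RNU1-27P matched at 52.8% and 49.3%. No level for unrelated sequences is given beside these values, so the lower ones are no measure of relatedness. The 250 bases before a gene of each kind are given below with the 12 bases they share in capitals, from RNU1-1 at chr1:16514286-16514535 (minus strand) and RNU1-27P at chr14:34546464-34546713 (plus strand).

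RNU1-1 upstream: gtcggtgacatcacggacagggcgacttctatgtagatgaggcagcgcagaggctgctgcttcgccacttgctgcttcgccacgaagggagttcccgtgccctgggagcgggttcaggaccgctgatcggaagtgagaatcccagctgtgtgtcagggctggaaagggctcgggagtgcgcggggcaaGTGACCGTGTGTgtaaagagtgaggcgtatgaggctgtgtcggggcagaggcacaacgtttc

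RNU1-27P upstream: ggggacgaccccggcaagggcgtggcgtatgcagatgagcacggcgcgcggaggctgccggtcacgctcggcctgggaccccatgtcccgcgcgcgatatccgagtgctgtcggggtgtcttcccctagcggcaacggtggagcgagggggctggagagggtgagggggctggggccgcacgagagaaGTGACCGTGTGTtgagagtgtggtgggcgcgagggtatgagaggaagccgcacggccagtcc

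The capitals began at position −62, counted from the gene start, in all 6 U1 members. The string was picked after the upstream sequences were read and was searched on both strands. It occurred in 8 of 62700 windows from 250 bases before to 50 bases after a gene start (0.0128%), which were those of the 6 members, of RNVU1-21 and of the lncRNA ENSG00000287476. The octamer ATTTGCAT, a motif of many snRNA enhancers, was in the same window of none of the 7 members and of 2.28% of all genes, searched on both strands.

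The 60 bases past the gene are shown because several summits fell there, with the match to the 3′ box in capitals, from chr1:16514062-16514121 (minus strand) and chr14:34546878-34546937 (plus strand).

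RNU1-1 past the end: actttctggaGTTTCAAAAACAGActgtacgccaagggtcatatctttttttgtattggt

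RNU1-27P past the end: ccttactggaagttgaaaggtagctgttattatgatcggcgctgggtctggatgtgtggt

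A 3′ box was matched from 11 bp past the end in RNU1-1, RNU1-2, RNU1-3 and RNU1-4, and ran to 24 bp past it in RNU1-1. None was matched in the 60 bp past RNU1-27P, RNU1-28P or RNU2-2P, and 0.179% of all genes held one. The 3′ box was searched by its degenerate form, on the strand of the gene for the members and on both strands for the share of all genes.

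RNU2-2P lies at chr11:62841619-62841809 on the minus strand and is 191 bp long. It matched RNU2-1, the U2 gene at chr17:43233787-43233977 (minus strand), at 95.8% of bases, with the 8 substitutions G108A, C109A, A110T, G111A, C170T, C187T, C189T and T191C (RNU2-1 base first, positions counted from 1 at the 5′ end of the gene). The stretches that hold them are given with the differing bases in capitals, at chr17:43233852-43233881 and chr11:62841684-62841713 for bases 97 to 126, and at chr17:43233787-43233816 and chr11:62841619-62841648 for bases 162 to 191.

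RNU2-1 bases 97 to 126: ggatttttggaGCAGggagatggaatagga

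RNU2-2P bases 97 to 126: ggatttttggaAATAggagatggaatagga

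RNU2-1 bases 162 to 191: tgcagtacCtccaggaacggtgcacCcCcT

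RNU2-2P bases 162 to 191: tgcagtacTtccaggaacggtgcacTcTcC

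Upstream the U2 genes matched at 53.2% of 500 bases, again without a level for unrelated sequences. The copy on chromosome 11 was thus distinguishable from those on chromosome 17 by its flanks. RNU2-2P was the member with the most lists, and 3 of its 4 summits fell in a stretch of 30 bp past its end, at chr11:62841564-62841593 on the minus strand, where capitals mark the summit bases.

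RNU2-2P summits past the end: TaatggaagatTtcgatcagttagggtacA

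RNU2-2P had 1 summit in each of the 4 lists. Without AP the summits were at 62841564 in replicate 1 and 62841593 in replicate 2, and with AP at 62841732 and 62841582. Counted from the first base of the gene as 1, these are positions 246, 217, 78 and 228, so that the plus AP replicate 1 summit alone was inside the gene and the others were 55, 26 and 37 bp past its end. The 3 summits past the end were 11, 18 and 29 bp from each other, and the summit inside was 139 to 168 bp from them.

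Ranks are by the deposited score, the −log10 of the peak caller's q-value, with 1 as the highest score of a list. The RNU2-2P summits scored 15.7, 17, 30.3 and 12.5 in the 4 lists, given here and throughout as minus AP and then plus AP with replicate 1 first. They ranked 161 of 739 (tied with 3 others), 1 of 56, 132 of 1094 and 15 of 297. The summit thus led the shortest list and was the highest of the members in every list, at rank percentiles (rank divided by list length, in percent) of 21.8, 1.79, 12.1 and 5.05. The score itself was highest in the longest list, but scores depend on depth and were compared within a list only.

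RNU1-1 had a summit in both replicate 1 lists and in neither replicate 2 list. It lay 21 bp past the gene end without AP (16514101, score 13.5, rank 185) and 13 bp past it with AP (16514109, score 17.4, rank 180), 8 bp apart. Both summits were therefore inside the 3′ box match printed above, at positions 185 and 177. The box was also matched past RNU1-2, RNU1-3 and RNU1-4, and none of their summits fell in it. Those were at positions 260 and 86, 60 and −133, and 69 and −203. The RNU1-4 summits were 271 bp apart, so a summit does not resolve a match this short. Of the U1 members, RNU1-1 ranked highest in the minus AP list.

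RNU1-2 had summits 174 bp apart in the replicate 1 lists. The minus AP summit was 96 bp past the end (16896239, score 6.30, rank 353), and the plus AP summit was inside the gene at position 86 (16896065, score 23.7, rank 151). RNU1-2 thus was the U1 member with the highest rank with AP and was among the lower ones without it.

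RNU1-3 and RNU1-4, whose sequences were identical over the gene and 500 bp on both sides, showed the same arrangement. Without AP the summit was inside the gene, at position 60 of RNU1-3 (16666889, score 7.25, rank 321) and position 69 of RNU1-4 (16740584, score 8.22, rank 275). With AP it was upstream, 133 bp before RNU1-3 (16667081, score 5.45, rank 539) and 203 bp before RNU1-4 (16740313, score 7.38, rank 404). These were the only 2 member summits before a gene start, and the distances between conditions were 192 and 271 bp.

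RNU1-27P and RNU1-28P, facing each other on chromosome 14 and also identical with their flanks, had summits near the gene end. Those of RNU1-27P were at positions 156 without AP (34546869, score 10.2, rank 231) and 154 with AP (34546867, score 10.8, rank 277), 2 bp apart. Those of RNU1-28P were at positions 168 (34556222, score 4.51, rank 463) and 138 (34556252, score 10.5, rank 284), 30 bp apart. The listed positions of these identical copies took different ranks in the minus AP list, at percentiles 31.3 and 62.7, and similar ones in the plus AP list, at 25.3 and 26.0.

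**Figure D1:**
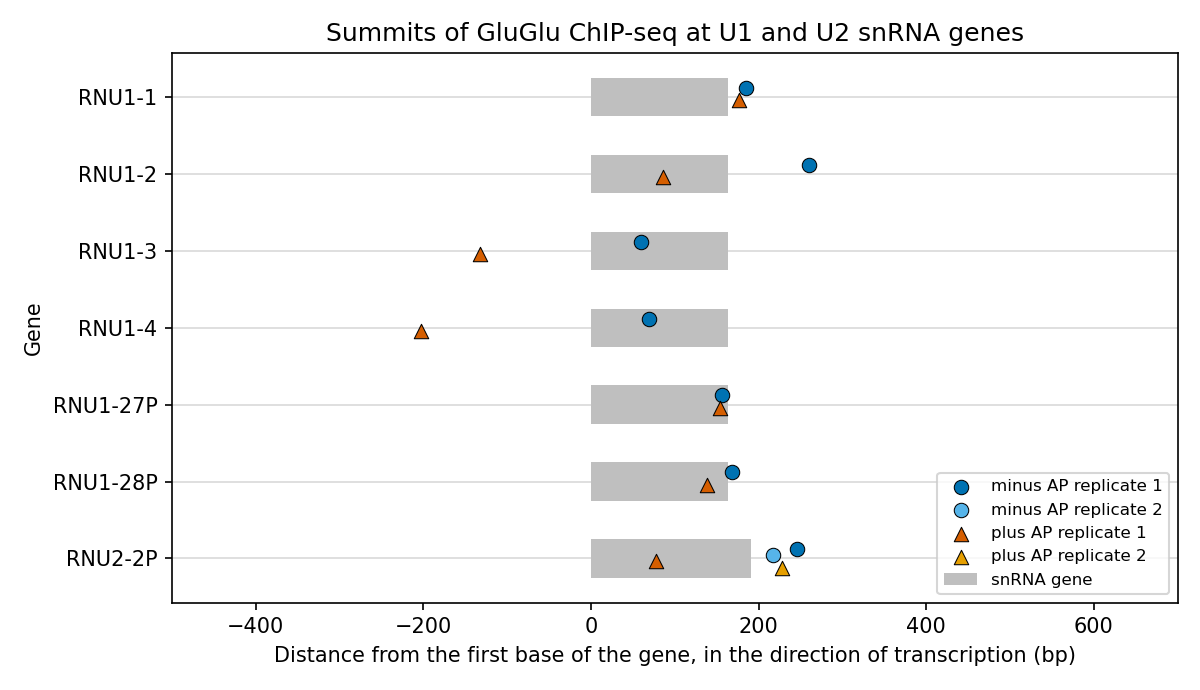
Summit positions (horizontal axis, bp from the gene start in the direction of transcription) for the 7 members (vertical axis), with the gene as a grey bar and 1 marker for each summit by condition and replicate. Of 16 summits 7 are inside a gene, 7 past its end and 2 upstream, and replicate 2 markers are at RNU2-2P alone.

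Over all members, 10 of 16 summits were between 50 bp before and 100 bp past the gene end. That window was not among the planned measures, and no share for other genes was computed for it. Several genes count more than once among the 10, so the count is a description only. The outermost member summits were 203 bp before and 96 bp past a gene, and the nearest summit outside the extended limits was 8728 bp away. Without any extension 3, 0, 4 and 0 members had a summit in the 4 lists, and RNU2-2P then had one in plus AP replicate 1 alone. In the lists of replicate 1 all 7 members had a summit, and in each list of replicate 2 only RNU2-2P had one. A summit inside the extended limits was seen at 0.201%, 0.1%, 0.278% and 0.547% of all genes in the 4 lists, at 0.051% in both minus AP lists and at 0.116% in both plus AP lists. Among the 1901 genes of type snRNA the shares were 1.53%, 0.158%, 1.68% and 0.579%, with 0.105% in both minus AP lists and 0.526% in both plus AP lists. Presence is what listed the members, so nothing is read from their count against these shares. RNU2-2P and RNU5A-1, a gene for U5 snRNA, were the 2 snRNA genes with a summit in all 4 lists (0.105% of snRNA genes), out of 29 genes of any type (0.0463%).

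Activation of the receptor pair was compared over libraries, with 2 in each condition. Presence, share and rank rest on the summits by which the members were chosen, so they are described and no test of them is reported. The number of members with a summit was 7 and 1 without AP and 7 and 1 with AP, or 4 ± 4.24 (SD, n = 2) in each condition. Members took 0.947% and 1.79% of the summits without AP (95% Wilson intervals 0.46 to 1.94% and 0.316 to 9.45%) and 0.64% and 0.337% with AP (0.31 to 1.31% and 0.0595 to 1.88%). The mean share was 1.37% ± 0.593 without AP and 0.488% ± 0.214 with AP (SD, n = 2 each), and the values did not overlap. Without extension of the gene limits the difference of −0.878 percentage points (plus AP minus minus AP) became −0.0202, and with the 56 highest-scoring summits of each list it became 0. The members held 7 and 1 summits in each condition, so with the extended limits the shares differed through their denominators, the list lengths, alone. The lists were longer with AP in each replicate, and the cause of that was not tested.

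The median position of the member summits was 168 and 217 without AP and 86 and 228 with AP, so the conditions overlapped (mean difference, plus AP minus minus AP, −35.5 bp, two-sided exact permutation p = 1, n = 2 each). The replicate 1 values are medians over 7 summits, and each replicate 2 value is the 1 summit of RNU2-2P. The values therefore do not measure the same genes across replicates, and the test cannot decide whether positions moved with AP. The best rank percentile of a member, which was that of RNU2-2P in every list, was 21.8 and 1.79 without AP and 12.1 and 5.05 with AP (mean difference −3.23 points, n = 2 each). A design of 2 against 2 libraries cannot give a p below 0.333, so these values neither separate the conditions nor show them to be alike.

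Between the replicate 1 lists, 6 of 7 members had a lower rank percentile with AP, RNU1-3 being the exception, with a median difference of −8.58 points. The plus AP list was longer (1094 against 739 summits), and the rank itself was a larger number with AP at RNU1-3, RNU1-4 and RNU1-27P. Of the 88 genes of any type with a summit in both lists, 61 (69.3%) had a lower percentile with AP, with a median difference of −8.67 points. With 1 library a condition in this pair there is no replicate check.

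**Figure D2:**
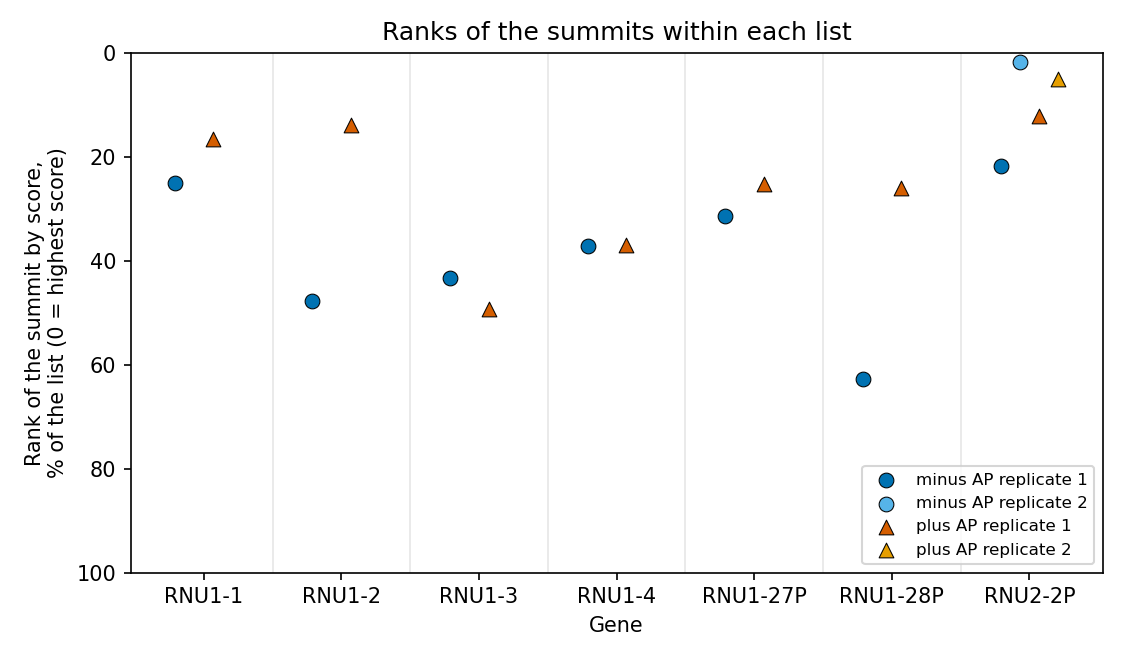
Rank percentile (rank of the summit divided by the list length, in percent) of each member in each of the 4 lists, low values being the highest scores. RNU2-2P is present in all 4 lists, at 1.79 and 5.05 in replicate 2, and the U1 members lie between 13.8 and 62.7 in the replicate 1 lists.

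The replicates differed in how many members they listed more than the conditions did, and the repeated sequence of the genes moved with that difference. The authors kept uniquely mapped reads of 75 bp, so the share of 75-bp sequences that occur more than once in GRCh38 was counted. Within each U1 member gene all 90 such sequences were repeated, at a median of 10 places. In the extended limits 41.0% were repeated at RNU1-1, 46.1% at RNU1-2, 100% at RNU1-3, RNU1-4, RNU1-27P and RNU1-28P, and 3.04% at RNU2-2P. The member in the replicate 2 lists was thus the one with the fewest repeated sequences, and 8 of the 16 member summits had nothing but repeated sequences within 250 bp on each side. A 75-bp read on its own cannot be placed uniquely there, so these 8 summits are at odds with the stated filter on unique reads, and how that filter was set is not given in the sources used here.

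The same held over the 35 snRNA genes with a summit in any list. The 11 genes in a replicate 2 list had 0 to 6.7% of sequences in their extended limits repeated, and the 24 genes in replicate 1 lists alone had 20.7 to 100%. The groups overlapped when counted within the gene alone. There RNVU1-14, RNVU1-15 and RNVU1-27, in replicate 1 lists alone, had 0% repeated. Of 16 genes with under 90% repeated in the gene, 11 were in a replicate 2 list, against 0 of 19 with at least 90%. The 24 genes were all U1 or U2 genes, whereas the 11, apart from RNU2-2P and RNVU1-6, were U4, U5 or minor spliceosome genes. Gene family thus differed along with repeated sequence. The 35 genes were taken because they had a summit. RNU4-1, RNU6ATAC and RNU7-1, at 0% repeated in the extended limits, and the 5 U6 genes, at 3.39 to 3.58%, had no summit in any list. The part of repeated sequence in the absence of the U1 members from the replicate 2 lists was not tested, and which of several identical copies a read came from cannot be told from within a U1 gene. For the pairs RNU1-3 and RNU1-4, and RNU1-27P and RNU1-28P, it cannot be told from the 500 bp on either side, so the positions and ranks given for them cannot be assigned to 1 copy of the pair.

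**Figure D3:**
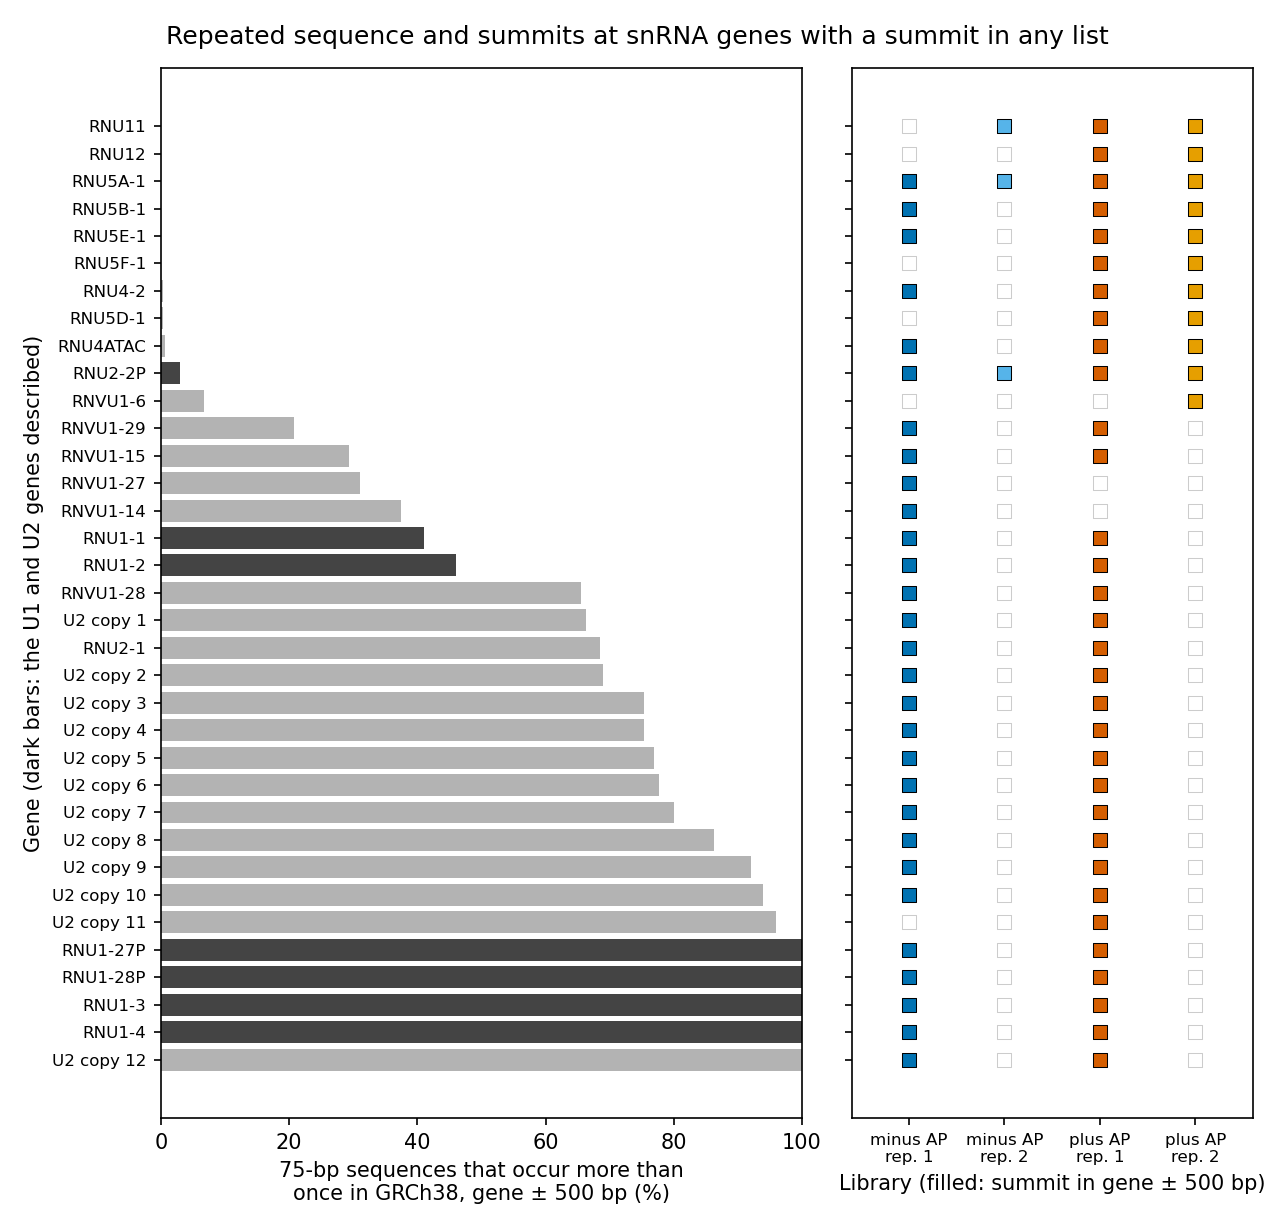
Percent of 75-bp sequences repeated in GRCh38 within the extended limits of each member and related snRNA gene with a summit in any list, beside the lists in which the gene had a summit. Genes with a summit in a replicate 2 list are at 0 to 6.7%, and RNU2-2P, at 3.04%, is the 1 member among them.

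The neighbours differed between members. RNU2-2P starts at the same base as WDR74, a ribosome biogenesis factor whose limits (chr11:62832342-62841809, minus strand) contain it. The gene overlaps annotated UTR of 2 WDR74 transcripts, and its summits cannot be assigned to RNU2-2P rather than to that longer gene by position alone. The canonical WDR74 start at 62839590 was 1974 to 2142 bp from the RNU2-2P summits. The nearest upstream gene was SNHG1, the snoRNA host lncRNA 10168 bp away, which had 2 summits of its own in plus AP replicate 2.

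RNU1-2 and RNU1-4 lie inside the limits of CROCC, which encodes the ciliary rootlet protein rootletin, but its canonical start at 16921931 was over 25 kb from the RNU1-2 summits and farther from those of RNU1-4. CROCC held 1 summit beside those of the members, in minus AP replicate 1 alone. The same summit fell at ENSG00000272426, the nearest gene downstream of RNU1-2. At RNU1-4 the start of the lncRNA ENSG00000290850 at 16740280 was 33 bp from the plus AP summit and 304 bp from the minus AP summit. RNU1-3 lies inside the lncRNA ENSG00000282143, and CROCCP2, its nearest downstream neighbour, had 1 summit in minus AP replicate 1 alone. RNU1-1 has the lncRNA ENSG00000261135 as its nearest upstream neighbour at 359 bp, with CROCCP3 14864 bp downstream. RNU1-27P and RNU1-28P each have a divergent lncRNA 384 bp upstream, ENSG00000259002 and ENSG00000259135, and neither had a summit.

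The other U2 copies behaved like the U1 members across replicates. The 13 U2 genes in the array at chr17:43233787-43300231 had 13 summits in each replicate 1 list, at 12 of the genes without AP and at 13 with AP, and none in replicate 2. Their ranks ran from 71 to 607 of 739 and from 68 to 627 of 1094. RNU2-1, the copy with its own symbol, ranked lowest of the array in both lists. Its summit was 10 bp before the gene without AP (43233987, rank 607) and at position 15 with AP (43233963, rank 627). The replicate 2 lists had no summit inside the array, the nearest to a U2 copy being 61105 bp away without AP and 15694 bp with AP. RNU2-2P was therefore the 1 U2 gene listed by replicate 2.

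Of 27 U1 variant genes (RNVU1, which encode U1-like RNAs), 5 had a summit in minus AP replicate 1, 3 in plus AP replicate 1, 1 in plus AP replicate 2 and 0 in minus AP replicate 2. RNVU1-15, RNVU1-28 and RNVU1-29 were in both replicate 1 lists and RNVU1-14 and RNVU1-27 in minus AP replicate 1 only. RNVU1-29, which has the same 164 bp as the members, ranked 251 of 739 and 166 of 1094. RNVU1-6 was listed by plus AP replicate 2 only, 20 bp past its end (146052061, rank 67 of 297), with no repeated sequence around the summit. The other 113 annotated U1 copies and 76 U2 copies had no summit in any list.

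Some genes for U4 and U5 snRNAs and for snRNAs of the minor spliceosome were also present, in both replicates with AP. Of 7 U4 and U5 genes 4, 1, 6 and 6 had a summit in the 4 lists. RNU5D-1 ranked 4 and RNU5B-1 16 of 297 in plus AP replicate 2, but 841 and 497 of 1094 in plus AP replicate 1. RNU5A-1 ranked 578, 22, 313 and 30 in the 4 lists, below RNU2-2P in each. Of 5 minor spliceosome and U7 genes 1, 1, 3 and 3 had a summit, RNU11 ranking 9 of 297. None of the 5 U6 genes, which RNA polymerase III transcribes, had one. All summit windows of these genes were free of repeated 75-bp sequences.

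None of 24 genes for U1 and U2 snRNP proteins, such as SNRNP70, SNRPA and SF3B1, had a summit in any list, beside a share of 0.769% of all genes with a summit in at least 1 list. Of 26 genes for snRNA transcription and 3′ processing, INTS6, an Integrator subunit, was the 1 with a summit, in the replicate 2 lists alone, where it ranked 33 of 56 without AP and 47 of 297 with AP.

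The genes most like RNU2-2P in best rank over the 4 lists were MIR205HG, DDIT4 and NEAT1. Their mean absolute differences were 1.93, 5.07 and 6.54 percentile points. The best rank is that of the highest-scoring summit in the extended limits of a gene. RNU2-2P had 1 summit per list, whereas a longer gene can hold several. MIR205HG, the host of miR-205, ranked 158, 2, 141 and 1. DDIT4, a stress-induced inhibitor of mTORC1, ranked 177, 6, 192 and 4, and NEAT1, the paraspeckle lncRNA, ranked 143, 5, 284 and 7.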

How the data were processed

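Reads were 75 bp, paired. After FastQC 0.11.5, the authors mapped them to GRCh38 using Bowtie2 2.2.9 and retained those that mapped uniquely and were not duplicates. MACS2 2.2.7.1 at default settings then called peaks, library by library, against input chromatin. The deposited score is the −log10 of the MACS2 q-value, and the lowest was 1.31. Depth is unknown, so scores were used as ranks within a list, and Wilson intervals cover counting error only. Of 12 samples 8 (input and naive IgG) were not analysed here. The labels call the replicates biological.

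Members and gene lists were chosen with earlier results of these data known. Summits were assigned to GENCODE 44 genes extended by 500 bp. Repeated 75-bp sequences were counted on both strands of 194 of 455 contigs, leaving out alternate ones, which held 7 summits, and the counting was tested on simulated data. Sequences were read from the GRCh38 FASTA. Conditions were compared over libraries by a two-sided exact permutation test, which is reported for position only, and the other measures were described. Named genes were the 7 members, their nearest neighbours, other U1 and U2 copies and listed pathway genes with a summit, and the 3 genes closest to RNU2-2P in rank. Alternatives changed the gene limits, minimum score, list length, merging, repeats, gene set and replicates. Python 3.11.15, numpy 2.4.6, scipy 1.17.1, numba 0.67.0 and matplotlib 3.10.9 were used.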

Additional observations from a re-analysis of the deposited data

How the results depend on the processing

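Without extension of the gene limits, the median position of the member summits differed between conditions by 43.0 bp (higher with AP) in place of −35.5 bp. With the 56 highest-scoring summits of each list it differed by 11 bp. The 43.0 bp came from replicate 1 alone (69 without AP, 112 with AP) and the 11 bp from replicate 2 alone (217 and 228). The other libraries held no member summit in those settings. The share of summits differed by −0.0202 and 0 percentage points under these settings, in place of −0.878. The best rank percentile differed by 25.0 points with those 56 summits, again from replicate 2 alone (1.79 without AP, 26.8 with AP), in place of −3.23. RNU2-2P, the 1 member in both replicates of each condition, was in both replicates of neither (0 and 0) under either of these settings. Leaving out each library in turn gave differences of −3 to 3 members, of −1.3 to −0.459 percentage points in the share of summits, of −106 to 35.5 bp in median position and of −13.2 to 6.77 points in best rank percentile. With the replicate number as a block, the mean differences were 0 members, −0.878 percentage points, −35.5 bp and −3.23 points; the numbers are shared by label only. Without summits in windows of at least 90% repeated sequence, 3, 1, 3 and 1 members had a summit in the 4 lists. Of 78 recomputed values 68 kept their direction and side of the threshold or moved by less than the spread between replicates. No comparison could pass the threshold, and the change in share from −0.878 to −0.0202 percentage points was counted among the 68. The count is therefore no measure of stability. The cause of the changes was not tested. With unknown depth, an absent summit is no sign of absent binding.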
